A study of Homo sapiens with 8 samples.

Results

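The start sites of 9 genes of the E2F and DNA replication programme were examined in ATAC-seq peak lists from 8 chromatin fractions of 293T cells: E2F1, CCNE1, PCNA, MCM2, MCM5, CDC6, RRM2, CCNA2 and TK1. A peak was assigned to a gene when it overlapped the 5 kb either side of the gene's hg19 start site, and 71 of the 119972 peaks in the 8 lists did so. Every gene had a peak in at least 5 lists. The genes were listed by name, with earlier results of these data known.

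ATAC-seq marks open chromatin by inserting sequencing adapters with a transposase. 293T cells are a human line of embryonic kidney origin, and they express the large T antigen of SV40. Cells were crosslinked, permeabilised and tagmented, and the mixture was then bound to Q Sepharose, a strong anion exchange resin. The unbound supernatant gave the flow-through library (FT), and washes with 20, 100, 200, 300, 500, 700 and 1000 mM NaCl gave the libraries G20, G100, G200, G300, G500, G700 and G1000. All 8 share the same cell line and the same handling before the resin, and no treated or control cells were included. Each fraction was 1 library with no replicate, so a test below compares single libraries and says nothing of the spread within a condition. The peaks of the G200 list are named G50_200, and the labels do not say whether that list holds the 200 mM wash alone. A peak list holds no markers that could check the identity of the line.

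E2F proteins bind, with a DP partner, near the start sites of genes needed for entry into S phase. Proteins of the RB family hold them inactive until cyclin-dependent kinases phosphorylate RB, and the large T antigen binds RB family proteins and releases E2F. The targets include regulators (E2F1 itself, cyclin E1 and cyclin A2), the factors that load and form the replicative helicase (CDC6, MCM2 and MCM5), the sliding clamp of the polymerases (PCNA) and enzymes of nucleotide supply (RRM2 and TK1).

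Promoter sequences from RefSeq (GRCh38.p14) were available for 8 of the 9 genes, in 11 entries, because PCNA, RRM2 and TK1 have a pair of entries each. Every entry spans 250 bases before the annotated start and 50 after it. Which of a gene's entries holds the hg19 start site used for the peaks was not worked out, since the builds differ. The PCNA entries begin at 5119909 and 5126573, too far apart for 5 kb either side of 1 start to reach the other. The E2F site was searched on both strands as TTTGGCGC, TTTCCCGC, TTTCGCGC and TTTGCCGC. It was found in E2F1, PCNA, MCM2 and CDC6, that is in 4 of 8 genes, against 3.99% of the 27305 genes in the table. A looser form, the same words without their first T, lies inside every match of the longer form. It added RRM2 and TK1 for 6 of 8 genes, against 15.3% of all genes. The 5 entries below are shown because 4 of them hold the longer site and TK1 had the most reads of the 9 genes in 6 of the 8 libraries. Capitals mark the E2F sites in either form and the CCAAT boxes, which read ATTGG on the other strand and are the binding sequence of the factor NF-Y.
E2F1, chr20:33686336-33686635, minus strand: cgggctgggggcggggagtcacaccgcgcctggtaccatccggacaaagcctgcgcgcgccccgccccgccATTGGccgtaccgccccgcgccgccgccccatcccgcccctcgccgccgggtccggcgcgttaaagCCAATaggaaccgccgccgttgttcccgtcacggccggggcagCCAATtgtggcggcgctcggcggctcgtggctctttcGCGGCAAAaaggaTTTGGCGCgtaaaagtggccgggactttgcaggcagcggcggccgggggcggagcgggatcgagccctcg
PCNA, chr20:5126573-5126872, minus strand: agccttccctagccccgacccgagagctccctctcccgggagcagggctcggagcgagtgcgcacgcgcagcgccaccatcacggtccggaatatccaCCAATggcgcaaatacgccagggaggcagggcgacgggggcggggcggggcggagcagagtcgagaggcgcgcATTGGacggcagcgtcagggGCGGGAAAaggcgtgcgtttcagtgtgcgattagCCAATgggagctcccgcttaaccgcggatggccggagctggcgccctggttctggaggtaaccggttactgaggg
MCM2, chr3:127598161-127598460, plus strand: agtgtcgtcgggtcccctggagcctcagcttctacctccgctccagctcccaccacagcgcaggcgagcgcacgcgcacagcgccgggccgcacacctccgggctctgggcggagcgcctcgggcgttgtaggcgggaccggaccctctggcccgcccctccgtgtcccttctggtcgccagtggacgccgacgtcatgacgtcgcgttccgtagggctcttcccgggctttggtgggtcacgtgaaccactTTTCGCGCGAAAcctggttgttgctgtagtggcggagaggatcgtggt
CDC6, chr17:40287629-40287928, plus strand: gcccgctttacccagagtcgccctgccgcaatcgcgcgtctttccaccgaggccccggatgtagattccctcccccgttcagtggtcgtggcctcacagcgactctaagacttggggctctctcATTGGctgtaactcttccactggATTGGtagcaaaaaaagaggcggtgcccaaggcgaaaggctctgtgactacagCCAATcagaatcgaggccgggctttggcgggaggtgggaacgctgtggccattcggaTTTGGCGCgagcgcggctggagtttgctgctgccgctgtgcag
TK1, chr17:78187003-78187302, minus strand: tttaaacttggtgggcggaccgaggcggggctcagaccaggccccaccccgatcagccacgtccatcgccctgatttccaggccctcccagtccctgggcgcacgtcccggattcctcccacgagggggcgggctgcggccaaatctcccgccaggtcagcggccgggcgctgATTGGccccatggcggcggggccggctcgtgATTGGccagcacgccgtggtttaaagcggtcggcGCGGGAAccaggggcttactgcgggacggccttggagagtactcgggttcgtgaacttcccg

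In E2F1 the sites start 33 and 20 bases before the RefSeq start, on opposite strands. In MCM2 a site on each strand overlaps the other, starting 3 and 7 bases into the transcript, and in CDC6 the site starts 8 bases into it. The PCNA site starts 59 bases before the start. The shorter TK1 match, TTCCCGC read on the other strand, starts 12 bases before the start. CCAAT boxes were in 6 of 8 genes, against 39.7% of all genes, with 3 each in the E2F1 and CDC6 entries and in the PCNA entry shown. MCM2 and CCNE1 had none. The GC box GGGCGG, a site for Sp1, was in 7 of 8 genes (48.3% of all) and was absent from CDC6 alone among these 8. CCNE1 held 7 GC boxes and no E2F site of either form. The word TATAAA was in 1 gene, TK1 (14.0% of all). It is in the TK1 entry not shown, on the other strand, and starts 132 bases before that entry's start. The CHR words TTTGAA and TTCGAA were in 0 of 8 (19.5% of all). Other forms of the CHR were not searched, so this does not show that these promoters lack one. The entries were rich in G and C, from 60.7% in CDC6 to 81.0% in CCNE1, with a median of 68.3% against 58.7% over all 35116 entries. The ratio of observed to expected CpG had a median of 0.967 against 0.579. These matches describe letters in a window and are not evidence of binding. The genes were picked by name as E2F and replication genes, so the shares are no independent test of the E2F words. The genes behind the shares of all were not matched for base composition.

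PCNA, MCM2 and TK1 have a close neighbour on the opposite strand. In the RefSeq table (GRCh38.p14), CDS2 starts within 1 kb of 1 PCNA entry and PCNA-AS1 within 1 kb of the other, TPRA1 starts within 1 kb of MCM2, and AFMID starts within 1 kb of both TK1 entries. A peak at these start sites cannot be assigned to 1 of the neighbours. For the other 5 genes with an entry, no other start lay within 5 kb in that table.

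The fractions differed in the reads over shared summits. The mean number of reads over a summit, taken over the 4098 ordinary regions called in all 8 lists, was 30.7 (FT), 28.8 (G20), 19.9 (G100), 22.4 (G200), 29.5 (G300), 16.9 (G500), 14.4 (G700) and 17.2 (G1000). Reads here are the pileup over the summit, recovered from the authors' fold enrichment and p-value. Ordinary regions lie on placed chromosomes, away from chromosome ends and from the longest peak-free stretch, and all 9 start-site regions are ordinary. The lists held from 8102 peaks (G700) to 22807 (FT). Summit means mix depth with enrichment. The lowest background of a list ordered the libraries otherwise, with G200 lowest at 0.239, then G700 at 0.248, and FT highest at 0.662.

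Open chromatin was called at the start sites of all 9 genes in FT, G20, G200 and G300. In G100 8 genes had a peak, in G500 and G1000 7, and in G700 5. The background is the share of all 36845 merged regions called in a list, which was 61.6% (FT), 52.5% (G20), 35.8% (G100), 43.2% (G200), 53.3% (G300), 28.1% (G500), 21.9% (G700) and 27.7% (G1000). In all, 63 of the 72 pairs of gene and library had a peak. PCNA, CDC6, RRM2 and TK1 were called in all 8 lists, where 11.5% of merged regions were. Of the 22713 regions with an FT peak, 18.7% were called in every list. With each list reduced to its strongest 8102 peaks, 55 pairs had a peak, and the genes called were 6 in G300 and 4 in G1000.

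**Figure D1:**
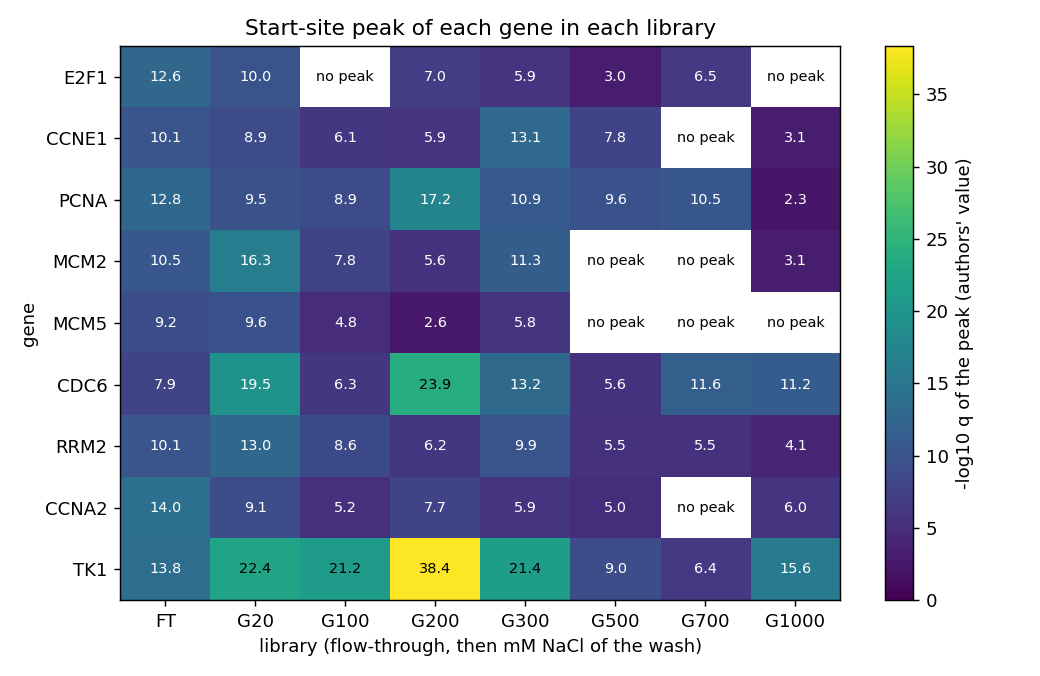
The −log10 q of the start-site peak, the authors' value, is shown for 9 genes (vertical) in 8 libraries (horizontal), with white cells where no peak was called. Of the 9 empty cells, 8 are in G500, G700 and G1000 and 1 is E2F1 in G100, and the highest value is TK1 in G200 at 38.4.

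Outside G1000, most peaks ranked in the upper part of their lists. Ranked by −log10 q within its list, a start-site peak lay at a median of the top 28.7%, and 54 of the 63 were in the top 50%. In G1000 the median was 66.2%, and 3 of 7 peaks were in the top 50%. The order of the genes differed between libraries, and the values below are the authors' −log10 q, which grow with depth and are comparable only within a list. TK1 led the 9 genes in G20, G100, G200, G300 and G1000, with 22.4, 21.2, 38.4, 21.4 and 15.6. CCNA2 led in FT at 14.0, PCNA in G500 at 9.61, and CDC6 in G700 at 11.6.

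The peaks sat on or just before the start sites. Of the 63 start-site peaks, 54 covered the start base itself. Their widths ran from 302 bp to 1112 bp with a median of 507 bp. For the 8 genes with a strand in the RefSeq table, 53 of 58 summits lay upstream of the start. The median over all 58 was 116 bp upstream, and 49 lay within 300 bp upstream. The 5 summits on the transcribed side were PCNA in G1000, TK1 in G700 and CCNA2 in FT, G500 and G1000. The share over all genes was not computed, since no hg19 annotation was used here.

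**Figure D2:**
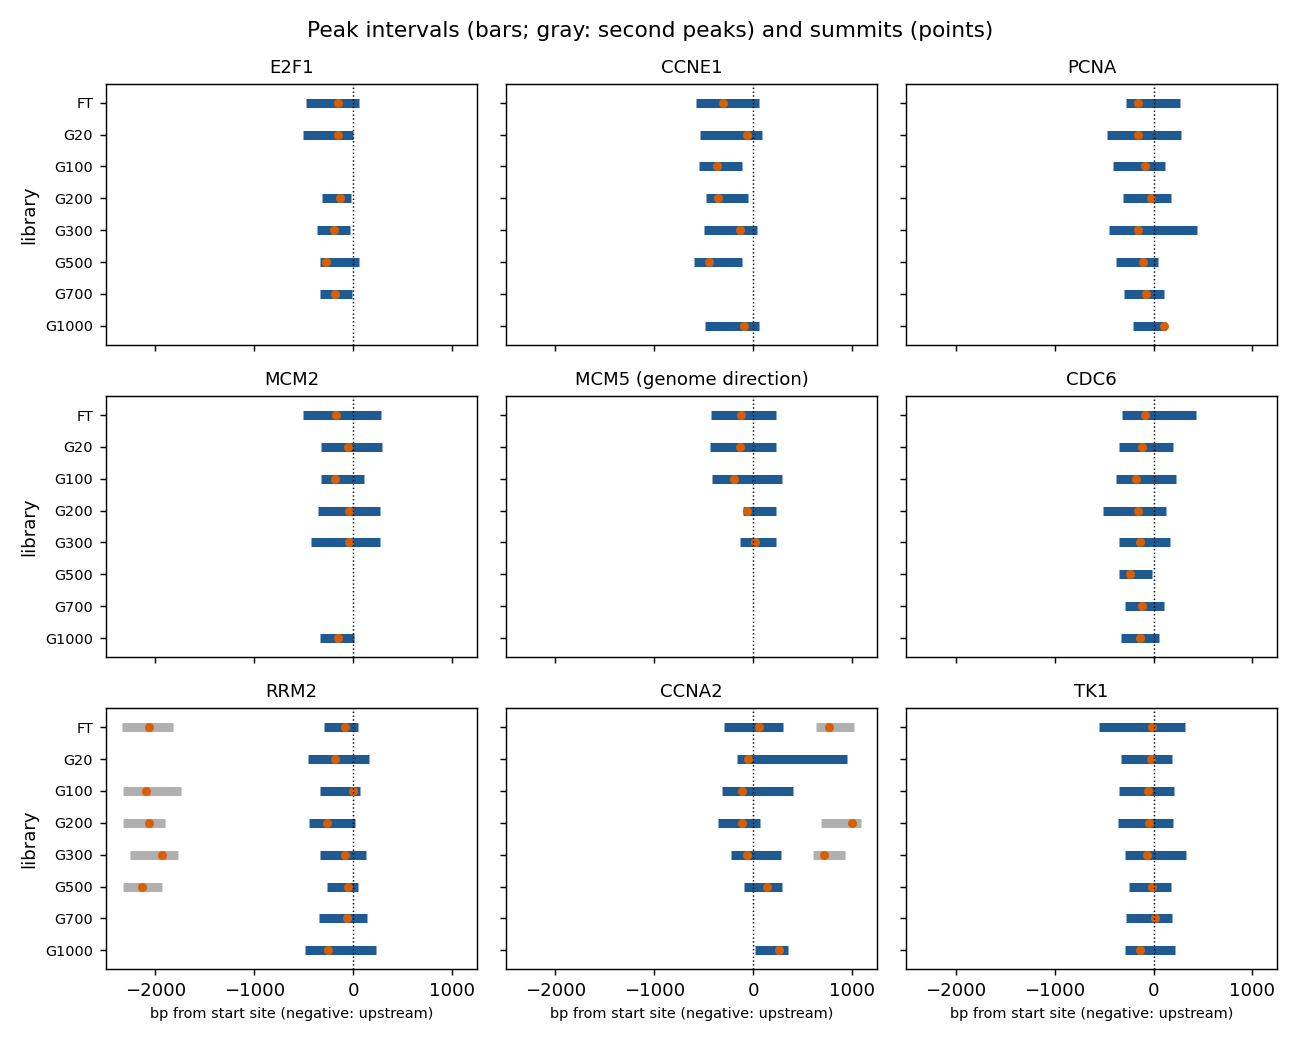
Each panel shows 1 gene, with the distance from the hg19 start site in bp in the direction of transcription (genome direction for MCM5) and 1 row per library; bars are peak intervals, gray bars are second peaks in the window, and points are summits. Most start-site peaks cross the dotted line at the start, and those of E2F1 and CCNE1 lie mostly before it.

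Among the regulators, E2F1, the founding member of its transcription factor family (hg19 chromosome 20, start at 32274210, minus strand), had its peak upstream of the start. The bases 32274241 to 32274530 lay in the peak of each of the 6 lists that called it, and only the FT and G500 peaks covered the start. The summit was 131 to 271 bp upstream. It held 22 reads (FT), 16 (G20), 13 (G200), 12 (G300), 7 (G500) and 10 (G700), and no peak was called in G100 or G1000.

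CCNE1 encodes cyclin E1, the partner of CDK2 at the start of S phase (chromosome 19, start at 30302901, plus strand). Its summits were spread most widely, from 66 bp upstream in G20 to 448 bp upstream in G500, and 4 of its 7 peaks covered the start. Its reads were 18 (FT), 13 (G20), 10 (G100), 10 (G200), 19 (G300), 12 (G500) and 7 (G1000), with no peak in G700. G300 had about as many reads as FT.

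CCNA2 encodes cyclin A2, which acts in S phase and before mitosis (chromosome 4, start at 122745088, minus strand). It was called in 7 lists, with 25 reads (FT), 16 (G20), 11 (G100), 15 (G200), 14 (G300), 9 (G500) and 12 (G1000). Its 7 peaks had only 49 bp in common, from 122745020 to 122745068, and the G1000 peak did not reach the start. A second peak lay between 122743997 and 122744482 in FT, G200 and G300, with its summit 716 to 994 bp into the gene. The G20 peak, at 1112 bp the widest of the 63, ran across the start and into that stretch.

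The licensing factor CDC6, which loads the MCM helicase onto origins (chromosome 17, start at 38444146, plus strand), was called in all 8 lists. Its reads were 17 (FT), 27 (G20), 12 (G100), 29 (G200), 20 (G300), 10 (G500), 16 (G700) and 15 (G1000). G200 had the most reads although its mean over ordinary summits was not the highest, and FT had fewer than G20. The summit stayed between 91 and 241 bp upstream, and 7 of 8 peaks covered the start.

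MCM2 and MCM5, both subunits of that helicase, were not called in the same set of high-salt lists. MCM2 (chromosome 3, start at 127317200, plus strand) had 20 reads (FT), 23 (G20), 13 (G100), 10 (G200), 19 (G300) and 8 (G1000), and no peak in G500 or G700. MCM5 (chromosome 22, start at 35796116) had 19 reads (FT), 15 (G20), 10 (G100), 6 (G200) and 12 (G300), and no peak in G500, G700 or G1000. The 6 reads of MCM5 in G200 were the fewest of any start-site peak, and all 11 peaks of these genes covered the start.

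PCNA, the clamp that holds the polymerases on DNA (chromosome 20, start at 5107268, minus strand), covered its start in all 8 lists. Its reads were 27 (FT), 21 (G20), 19 (G100), 26 (G200), 23 (G300), 18 (G500), 17 (G700) and 8 (G1000). The 8 reads of G1000 stood below the 17 of G700, a library with a lower mean over ordinary summits. In G1000 the summit lay 106 bp into the gene, while in the other 7 lists it was 27 to 156 bp upstream.

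RRM2 encodes the small subunit of ribonucleotide reductase, which makes deoxyribonucleotides (chromosome 2, start at 10262735, plus strand). It was the most even of the 4 genes called everywhere, with 27 reads (FT), 25 (G20), 19 (G100), 16 (G200), 24 (G300), 14 (G500), 12 (G700) and 12 (G1000). A second peak lay between 10260401 and 10260997 in FT, G100, G200, G300 and G500, with its summit 1935 to 2137 bp upstream. It held 32 reads (FT), more than the 27 at the start site, then 16 (G100), 15 (G200), 19 (G300) and 14 (G500). It was not called in G20, where the start-site peak had 25 reads.

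TK1, the thymidine kinase of the salvage pathway (chromosome 17, start at 76183285, minus strand), had the most reads of the 9 genes in 6 of the 8 libraries, sharing the lead in FT. Its reads were 27 (FT), 31 (G20), 28 (G100), 47 (G200), 30 (G300), 15 (G500), 10 (G700) and 22 (G1000). The 47 of G200 stood above every other library. All 8 peaks shared the stretch from 76183109 to 76183532, 424 bp across the start, and the summits lay between 19 bp into the gene and 133 bp upstream.

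The reads of the 4 genes called everywhere were compared across libraries, with the number expected from each library's share of the reads in ordinary regions. Each expected number is that share of the gene's reads over all 8 libraries. It includes the library's own reads, which draws each ratio toward 1. Each library was set against the other 7 in a two-sided exact binomial test. The p-values were adjusted by the Benjamini-Hochberg method over all 33760 tests, from 4220 regions. Of the 32 tests at these genes 1 passed, TK1 in G200, where 0.578% of all tests did and 0.711% of regions passed as higher in G200. An unadjusted p under 0.05 was found in 2 of the 32, beside 5.55% of all tests. TK1 had 47 reads in G200 against 26.2 expected, 1.80 times (95% Poisson interval 1.32 to 2.39, counting error only; adjusted p = 0.0138 in the exact binomial test). Against the reads of the other 7 libraries alone, TK1 in G200 was at 2.03 times. In the other 7 libraries the TK1 ratio to the expected number ran from 0.596 in G700 to 1.20 in G100.

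The G200 library and chromosome 17 moved with that result. In G200 the 130 ordinary regions of chromosome 17 were together at 1.24 times their expected number (1.20 to 1.28). With expected shares taken from chromosome 17 alone, a choice made with the data in view, TK1 in G200 was at 1.45 times and did not pass (adjusted p = 0.507 in the exact binomial test; 6.66e-08 to 0.507 over the alternatives). CDC6, on the same chromosome, was at 1.59 times in G200 (1.07 to 2.29) with an unadjusted exact binomial p of 0.0115 and an adjusted p of 0.551, and at 1.28 with the chromosome's own shares. Over ordinary regions, the spread of reads between G200 and each other library was 1.37 to 1.84 times that of counting alone, against 0.663 to 0.881 times for the 15 pairs without G200 and FT. For FT with each of the other 6 it was 1.07 to 1.31 times. The counting model is therefore too narrow for G200 and, to a smaller extent, for FT. Between the other libraries the spread was below counting, so the model is too wide there. An interval that includes 1 in those libraries does not show that the reads were equal.

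The other 31 tests did not pass, with ratios from 0.525 to 1.59. Scaled to each list's lowest background instead, 4 of them did: CDC6 and PCNA in G200 were at 2.45 and 2.02 times, and TK1 and CDC6 in FT were at 0.574 and 0.520. TK1 in G200 was then at 2.76 times, and 4.48% of all tests passed. PCNA in G1000 was the lowest, at 8 reads against 15.2 expected (interval 0.227 to 1.04; adjusted p = 0.934 in the exact binomial test). RRM2 stayed between 0.841 in G1000 and 1.15 in G100. Of these 31 intervals, only that of CDC6 in G200 excluded 1. For the 5 genes missing from 1 or more lists no test was made. For them the expected number came from the lists that called the gene, the library's own reads included. Their ratios ran from 0.567 (MCM5 in G200) to 1.32 (CCNE1 in G500), and every interval included 1.

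**Figure D3:**
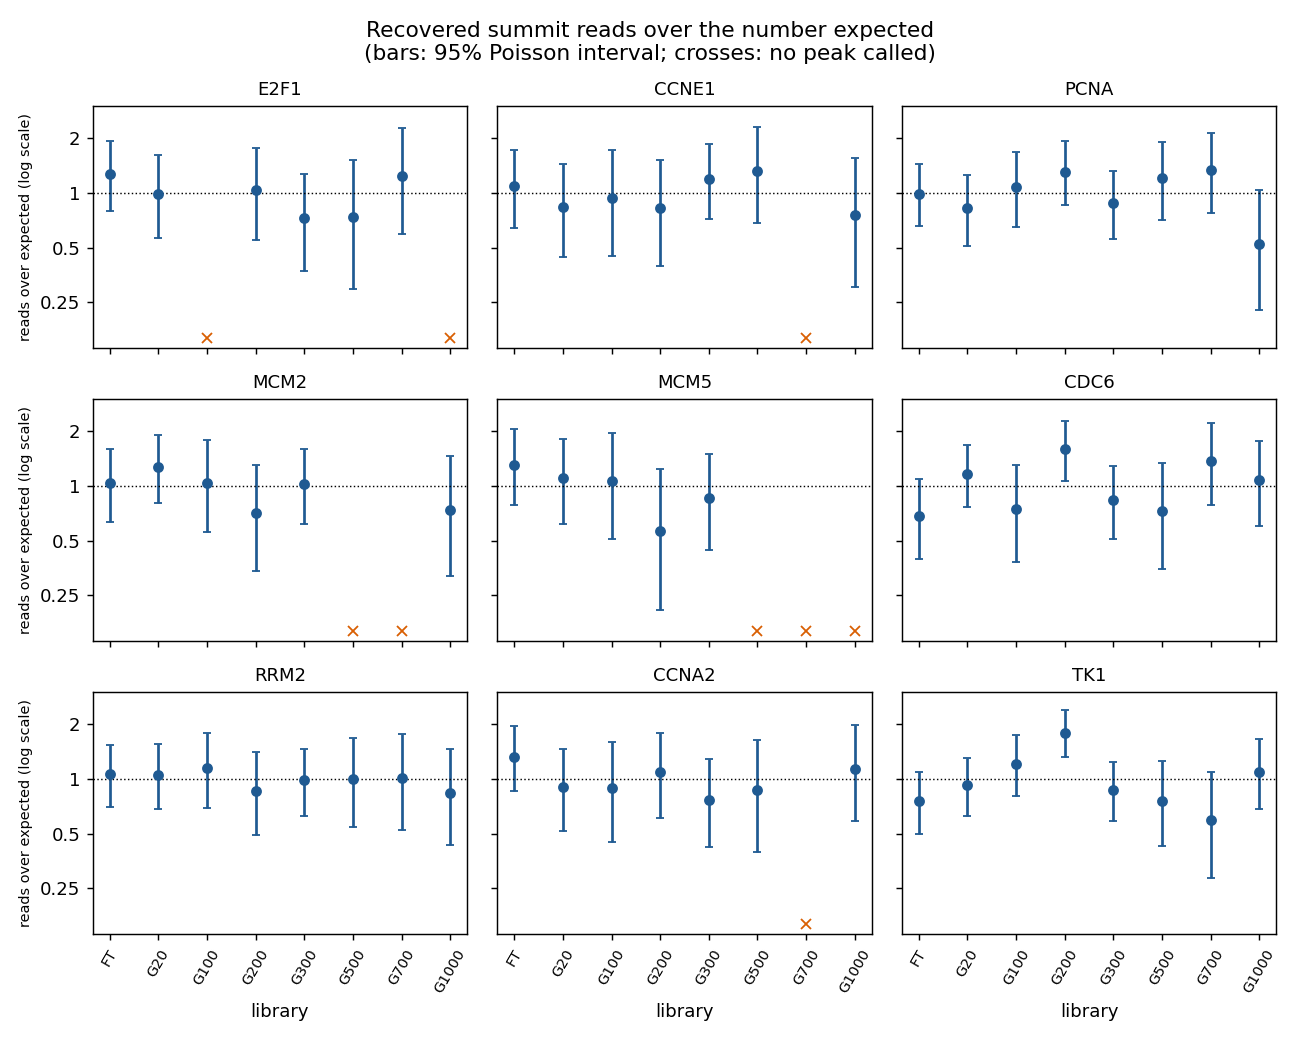
Each panel shows 1 gene, with its recovered summit reads over the number expected in each library on a log scale, 95% Poisson intervals as bars and crosses where no peak was called. Of the 63 points, 61 have an interval that includes 1, and the other 2 are TK1 and CDC6 in G200.

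The low-salt side (FT, G20 and G100) and the high-salt side (G500, G700 and G1000) did not differ detectably in any of the 4 genes. Only the 4 genes called in every list were tested, so the 5 genes missing from 1 or more lists were left out. Of the 9 missing calls, 8 were in the high-salt libraries, so the result does not cover genes without a peak there. TK1 had 86 reads in the low-salt libraries together and 47 in the high-salt ones, 1.12 times the ratio of ordinary regions (95% Clopper-Pearson interval 0.774 to 1.63). RRM2 was at 1.14 (0.759 to 1.74), PCNA at 0.951 (0.639 to 1.43) and CDC6 at 0.834 (0.548 to 1.28). The exact binomial test passed for 0 of 4 genes, adjusted or unadjusted, where 0.332% of the 4220 regions passed adjusted and 4.93% unadjusted.

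The 9 missing calls were set against the reads expected there. From the lists that called a gene, the reads expected in a list that did not were between 6.78 (MCM5 in G700) and 11.2 (E2F1 in G100). Over all ordinary regions with a peak in at least 5 of the other 7 lists, the share called in G700 was 39.7% at 6 to 8 expected reads and 58.5% at 8 to 10. In G100 it was 80.1% at 10 to 12 expected reads, where E2F1 had no peak. In G500 MCM2 was expected at 10.6 reads, in a step where 77.0% of regions were called. Adding these shares over the 72 pairs gives 62.1 calls, beside the 63 found. By library the sums were 5.69 in G700, where 5 genes were called, 6.98 in G500 and 6.97 in G1000, where 7 were, and 7.94 in G100, where 8 were. In the libraries that called all 9 genes the sums were 8.05 (G200), 8.78 (G20), 8.79 (G300) and 8.85 (FT). Of the 72 pairs, 54 had more expected reads than any missing call, so the total of 62.1 rests mostly on them. Of the other 18 pairs 9 were called, and the total does not show how closely the shares match there. In the libraries that called MCM5 it had a peak in 4 other lists, fewer than the 5 asked of the background regions. A missing peak in a peak list does not by itself show closed chromatin.

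**Figure D4:**
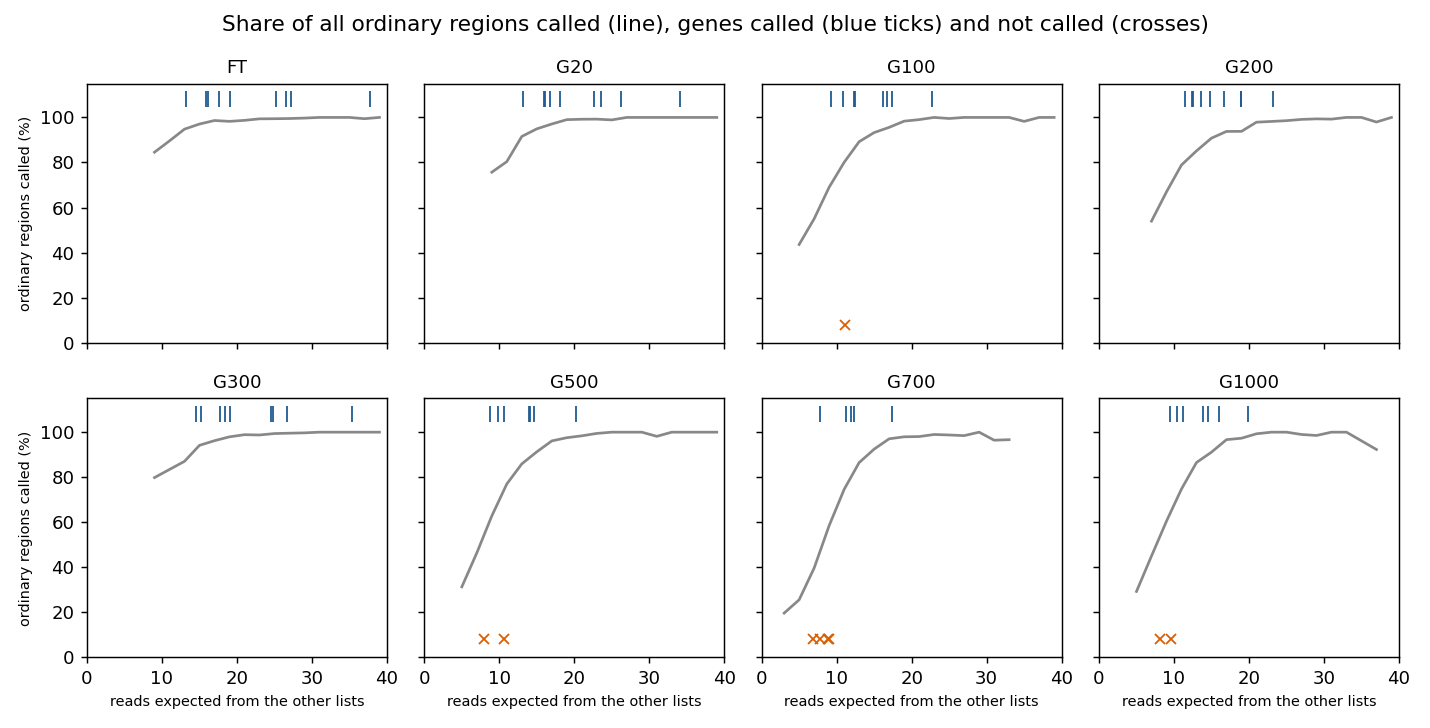
For each library, the line gives the percent of regions called against the reads expected from the other lists, in steps of 2 reads. The regions are the ordinary ones with a peak in at least 5 of the other 7 lists. Blue ticks are genes with a peak (drawn above 100% for legibility) and crosses are genes without one (drawn near 0). The crosses lie between 6.78 and 11.2 expected reads, and 4 of the 9 are in G700.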

How the data were processed

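ATAC-seq libraries of 8 Q Sepharose fractions of 293T cells, 1 each, were analysed. The submitters' processing notes name Bowtie2 2.2.6 as well as HOMER and MACS2 2.2.1, with the builds hg19 and mm10. The sources used here do not give parameters, read filters or any shift for the transposase. Each list deposited by the authors gives, for a peak, −log10 p, −log10 q, a fold enrichment (a ratio over local background) and an integer score. The score was not used further.

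The whole-number pileup (up to 3000) that gives both the deposited fold and the −log10 p within 0.001 was recovered. At least 99.3% of the peaks of each list had a single one, with background no lower than the list's lowest. Its extension and any pairing of reads are unknown. Peaks sharing 1 bp were merged. The highest peak of a region gave its reads. Ordinary regions lie over 20 kb from chromosome ends and 1 Mb from the longest peak-free stretch. The upper end of a chromosome was taken as the end of its last peak. Expected shares came from their summed reads. Tests were exact binomial (scipy 1.17.1), Benjamini-Hochberg adjusted at 0.05, and the code was tested on simulated data. Intervals cover counting error only. All 9 genes are named. The members, motifs and the split into sides were chosen with earlier results of these data known, and the background of missing calls after seeing them. A wider list of 71 replication genes was not analysed here, since no hg19 annotation was used.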

Additional observations from a re-analysis of the deposited data

How the results depend on the processing

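No library has a replicate, and no paired analysis was possible because each fraction holds 1 library. The counts of genes with a peak were the same in every library with a window of 1 kb, with −log10 q of at least 2, and with the summit required inside the window. With each list reduced to the length of the shortest, 63 pairs of gene and library fell to 55, with 8 genes in G200 (from 9), 6 in G300 (from 9), 6 in G500 (from 7) and 4 in G1000 (from 7), and 3 genes were called in every list in place of 4. A peak over the start base itself was called for 9 genes in FT and 4 in G700, and for 3 genes in every list. The test of 1 library against the others passed at these genes once. It passed 5 times when scaled to each list's lowest background, with TK1 in G200 at 2.76 times, CDC6 at 2.45, PCNA at 2.02, and TK1 and CDC6 in FT at 0.574 and 0.520; 4.48% of all tests passed then. It passed 0 times without G200 (0.217% of all tests) and 0 times with shares from the same chromosome (0.527%). Leaving out G200 removes the 1 test that had passed, TK1 in G200, so its 0 was nearly fixed in advance. The test passed once without FT, with summed peaks and among ordinary regions alone. Between the low and the high side it passed for 0 of 4 genes under each of the 6 alternatives. Leaving out G200 could hardly change that, since G200 is on neither side. Summed peaks and ordinary regions alone left the ratios of the 4 genes as printed above. Each of their start-site regions is ordinary and held 1 peak per list. The cause of the shifts between settings was not tested.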
